A study of Rattus norvegicus with 10 samples.

Results

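The calmodulin and CaM kinase genes of the fetal rat heart were taken from the deposited expression table by symbol, as 9 of the 18025 genes listed. They comprise the calmodulin genes Calm2 and Calm3, the CaMKII genes Camk2a, Camk2b, Camk2d and Camk2g, the single-chain kinases Camk1 and Camk4, and the upstream kinase Camkk2. Hearts were collected at embryonic day 19.5 from wild-type Sprague-Dawley fetuses. The dams were 3 months old, and their mates were normoglycemic. The dams received citric acid buffer (CON) or streptozotocin, which destroys pancreatic beta cells, in the same buffer (HG), each as 3 daily injections. The study's methods place these injections after mating, whereas its introduction places the hyperglycemia before pregnancy. The HG group is thus a model of maternal diabetes that begins with a loss of maternal beta cells, and its fetuses are defined by the treatment of the dam and not by a measurement of their own. Blood glucose of the dams was measured after the injections to verify diabetes. Stranded mRNA libraries of heart tissue were made from 5 CON and 5 HG samples. The study's methods speak of RNA pooled from the samples, whereas the labels and the values give 10 separate libraries. The labels do not say from how many litters the hearts came, so that p-values measure the spread between these samples.

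Calmodulin is a small calcium sensor that is encoded by separate genes for an identical protein. With calcium bound, it switches on the CaM kinases. CaMKII is a multimer built from alpha, beta, gamma and delta subunits, of which delta is regarded as the main form of the heart, where it phosphorylates calcium channels, the ryanodine receptor and phospholamban, and can stay active after calcium has fallen through autophosphorylation. CaMKI and CaMKIV are monomers that need a further phosphate from CaMKK, and CaMKK2 also activates AMP-activated kinase. The comparison asks whether the message for this pathway differed between hearts of hyperglycemic and of control pregnancies. The study measured the activation and O-GlcNAcylation of the CaMKII delta protein in the same model. It also reported that Camk2d mRNA, by RT-qPCR, and total CaMKII delta protein did not differ between the groups.

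Depth was similar in the groups, with 17639895 to 18240006 reads on genes in the CON libraries and 16672876 to 19109844 in those of HG. The values are FPKM, which the authors obtained by dividing read numbers by gene length and library size, so that each value is relative to the rest of its library. Hemoglobin genes held 2.27 to 4.21% of the FPKM in CON and 1.86 to 2.56% in HG. Of the markers of cardiomyocytes, 7 of 7 were expressed and their summed level was lower in every HG library (15541 to 18192 FPKM) than in every CON library (19399 to 20603 FPKM), while the summed level of 4 smooth muscle markers was higher, at 888 to 1121 FPKM against 651 to 778 FPKM. The sums of 5 endothelial and 5 fibroblast markers overlapped between the groups. In heart tissue, fewer cells of a type and less RNA per cell cannot be told apart.

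Among the 9 genes, Calm2, Camk2g, Camk2b and Camk1 were higher in HG, whereas Camk2d, Camk2a and Camkk2 did not pass the test, Calm3 missed the threshold narrowly with a lower mean, and Camk4 was too scarce to be tested. Calm2 rose 1.21-fold, Camk2g 1.16-fold, Camk1 1.17-fold and Camk2b 1.39-fold. The comparison was made with limma on log2(FPKM + 0.1) over the 14542 genes that averaged 0.1 FPKM or more, and a gene was called at a Benjamini-Hochberg adjusted p under 0.05, and log2FC denotes the log2 fold change of HG over CON from this fit. On this test 8 of the 9 genes had values, 4 were called higher and 0 lower, by voom on recovered reads also 4 and 0, and Calm3 was lower at an unadjusted p of 0.0204. Of all genes tested, 28.4% were called higher and 11.8% lower, 40.1% in all. The 4 of 8 tested genes that were called are close to this background. The median log2 fold change was 0.17 over the 8 genes and 0.09 over all genes tested. None of the 8 reached the 1 on the log2 scale that the study asks of a differentially expressed gene, which 1.94% of all genes did. The groups did not overlap in 4 of the 9 genes, all with HG above CON, against 19.3% of genes tested in that direction, 8.12% in the other and 27.4% in either.

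**Figure D1:**
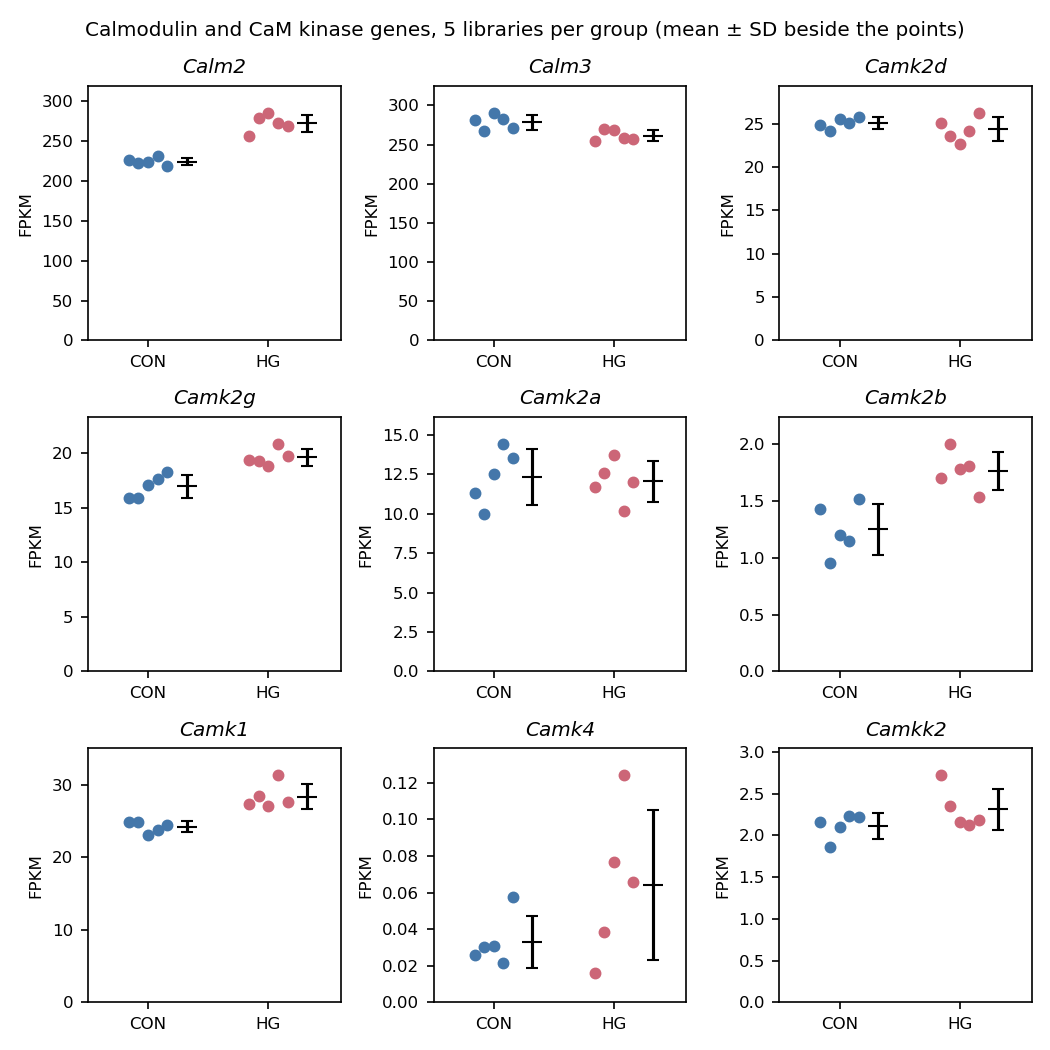
FPKM of the 9 genes in each library, on axes that start at 0, with the mean ± SD of 5 libraries per group beside the points. Every HG point lies above every CON point in Calm2, Camk2g, Camk2b and Camk1, while the groups overlap in the other 5 genes.

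Calm2 (NCBI Gene 50663) had the smallest adjusted p of the 9 genes. Its FPKM were 226, 222, 224, 231 and 219 in CON replicates 1 to 5 and 257, 279, 285, 273 and 269 in HG replicates 1 to 5. The lowest HG library thus stood above the highest CON library, by more than the whole range of CON. The mean of CON was 224 ± 4.49 FPKM and that of HG 273 ± 10.5 FPKM (± SD over 5 libraries), which is 0.28 on the log2 scale (SE 0.0342, limma adjusted p = 7.16e-05). Between 4324 and 5727 reads stood behind each value, and the call held under all 21 alternatives, with adjusted p from 1.62e-05 to 0.00166.

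Calm3 (24244), which encodes the same protein, had a lower mean in HG, 262 ± 6.96 FPKM against 279 ± 9.40 FPKM, and did not pass the test. CON replicates 1 to 5 had 281, 267, 290.0, 283 and 271 FPKM, and HG replicates 1 to 5 had 255, 269.9, 268, 258 and 257 FPKM. No HG library reached the CON mean, but the groups overlapped. The log2 fold change was -0.09 (SE 0.0341, 95% interval -0.16 to -0.02, adjusted p = 0.0507). Its call turned on small choices, since the adjusted p was 0.00258 with median-of-ratios factors, 0.0334 without CON replicate 2, 0.0432 without HG replicate 2 and 0.654 after quantile normalization, with the log2 fold change between -0.18 and -0.02 throughout.

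The balance within a library does not depend on how libraries are scaled. The ratio of Calm2 to Calm3 in FPKM was 0.771 to 0.832 in CON and 1.01 to 1.06 in HG. Calm3 was thus the higher of the pair in 5 of 5 CON libraries and Calm2 in 5 of 5 HG libraries. The order of the pair rests on the length by which the authors divided, which the values place at about 599 bases for Calm3 and 1116 for Calm2. Calm2 had 4324 to 5727 reads per library and Calm3 2570 to 3091, so that in reads Calm2 was the larger in every library. Coding sequences of the calmodulin genes resemble each other, which leaves the assignment of reads among them uncertain.

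**Figure D2:**
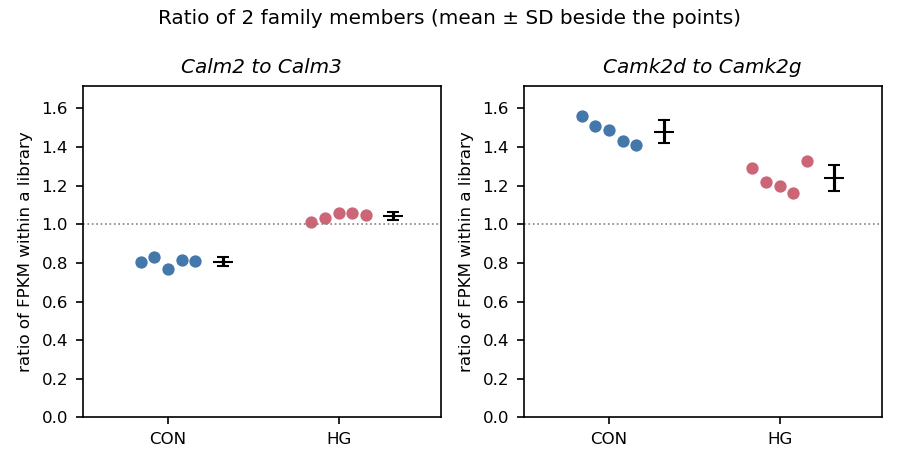
Ratio of the FPKM of 2 genes within each library, Calm2 to Calm3 on the left and Camk2d to Camk2g on the right, with the mean ± SD of 5 libraries beside the points and a dotted line at a ratio of 1. The ratio of Calm2 to Calm3 lies below 1 in every CON library and above 1 in every HG library, and the ratio of Camk2d to Camk2g is lower in every HG library (1.16 to 1.33) than in every CON library (1.41 to 1.56).

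CaMKII messages came mainly from the delta and gamma genes. In each of the 10 libraries the FPKM followed the order Camk2d, Camk2g, Camk2a and Camk2b, so that no neighbours in this order changed places. The promoters of the 2 main genes, and those of Camk2b and Camk1, which were called higher like Camk2g, are printed as RefSeq places them on GRCr8, 250 bases before to 50 after the annotated start of the gene, 5′ to 3′ along the gene. The deposited values name mRatBN7.2 as their build, and which start was used in these hearts was not measured. Capitals mark GC boxes, GGGCGG on either strand, including matches that overlap each other.
Camk2d (chr2:217698301-217698600, + strand): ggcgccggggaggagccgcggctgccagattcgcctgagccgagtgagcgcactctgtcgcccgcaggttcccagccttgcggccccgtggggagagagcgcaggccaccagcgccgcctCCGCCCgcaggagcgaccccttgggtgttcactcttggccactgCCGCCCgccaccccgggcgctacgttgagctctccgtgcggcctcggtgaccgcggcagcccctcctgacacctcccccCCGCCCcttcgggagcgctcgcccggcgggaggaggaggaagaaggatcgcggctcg
Camk2g (chr15:3553106-3553405, + strand): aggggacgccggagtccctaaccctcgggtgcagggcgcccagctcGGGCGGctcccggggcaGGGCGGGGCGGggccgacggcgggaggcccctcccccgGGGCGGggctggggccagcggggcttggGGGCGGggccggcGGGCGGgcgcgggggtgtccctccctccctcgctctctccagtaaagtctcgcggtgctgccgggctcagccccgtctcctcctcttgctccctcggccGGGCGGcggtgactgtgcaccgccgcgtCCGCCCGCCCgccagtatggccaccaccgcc
Camk2b (chr14:85147895-85148194, - strand): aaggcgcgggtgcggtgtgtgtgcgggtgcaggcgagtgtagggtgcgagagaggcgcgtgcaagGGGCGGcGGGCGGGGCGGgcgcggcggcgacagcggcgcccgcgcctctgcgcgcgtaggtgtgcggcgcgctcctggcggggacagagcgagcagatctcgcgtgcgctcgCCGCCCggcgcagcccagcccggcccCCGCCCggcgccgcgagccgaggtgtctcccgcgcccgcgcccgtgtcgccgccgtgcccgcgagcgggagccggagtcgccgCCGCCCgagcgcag
Camk1 (chr4:148047096-148047395, - strand): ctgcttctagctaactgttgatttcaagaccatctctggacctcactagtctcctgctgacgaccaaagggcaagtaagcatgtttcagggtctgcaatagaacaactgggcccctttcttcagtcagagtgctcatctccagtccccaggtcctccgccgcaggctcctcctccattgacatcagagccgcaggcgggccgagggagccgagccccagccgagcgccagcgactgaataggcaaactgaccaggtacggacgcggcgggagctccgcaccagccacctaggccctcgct
These windows differ in composition. The window of Camk2g held 9 GC boxes, that of Camk2b 6 and that of Camk2d 3, whereas that of Camk1 held 0. A GC box was found in 33.1% of the 33469 promoters of the table. The GC content was 80.0% in Camk2g, 81.3% in Camk2b, 74.7% in Camk2d and 60.0% in Camk1, against a median of 51.7% in the table. The cAMP response element TGACGTCA was in 0 of the 6 windows found for the 9 genes and in 1.83% of all, and TATAAA was in 0 of the 6 and in 14.2% of all. A match or its absence describes these letters only.

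Camk2d (24246), the gene of the subunit whose protein the study followed, had the steadiest level of the 4 in CON relative to its mean (SD 2.63% of the mean). Its FPKM were 24.8, 24.1, 25.5, 25.1 and 25.8 in CON replicates 1 to 5 and 25.1, 23.6, 22.6, 24.2 and 26.2 in HG replicates 1 to 5. The highest value of all and the lowest both belonged to HG libraries, and the groups overlapped. The means were 25.0 ± 0.659 FPKM in CON and 24.3 ± 1.39 FPKM in HG, with a log2FC of -0.04 (SE 0.0440, 95% interval -0.14 to 0.05, limma adjusted p = 0.478). By RT-qPCR in fetal hearts of the same age, the study also reported Camk2d as unchanged. With median-of-ratios factors the log2 fold change was -0.13 and passed the test (adjusted p = 0.0350), whereas over the other alternatives the adjusted p reached 0.807.

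Camk2g (171140), the gene of the gamma subunit, which is expressed in many tissues and in smooth muscle, was at 15.9, 15.9, 17.1, 17.6 and 18.3 FPKM in CON replicates 1 to 5. HG replicates 1 to 5 had 19.4, 19.3, 18.8, 20.8 and 19.7 FPKM, each above every CON library. The means were 17.0 ± 1.05 and 19.6 ± 0.746 FPKM (± SD over 5 libraries; log2FC 0.21, SE 0.0490, limma adjusted p = 0.00481). The call was lost with median-of-ratios factors (log2FC 0.12, adjusted p = 0.0890) and after quantile normalization (0.13, adjusted p = 0.0563). Markers of smooth muscle rose in the same libraries, 3 of the 4 tested, and their part in the level of Camk2g was not tested.

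Camk2b (24245), best known from brain and skeletal muscle, was the scarcest CaMKII gene and had the largest fold change of the 8 genes tested. It was at 1.43, 0.956, 1.20, 1.15 and 1.52 FPKM in CON replicates 1 to 5 and at 1.70, 2.00, 1.78, 1.81 and 1.54 FPKM in HG replicates 1 to 5. The groups stood apart by a narrow margin between CON replicate 5 and HG replicate 5. With 74 to 156 reads per library, the log2 fold change was 0.48 with a 95% interval of 0.21 to 0.75 (SE 0.125, limma adjusted p = 0.00935), and it was called under all 21 alternatives. Of the 7 markers of neurons and glia, 3 were abundant enough to be tested and 0 were higher, with a summed level of 5.64 to 6.49 FPKM in CON and 4.72 to 6.83 in HG, and Th, Snap25 and Sox10 among those at 0 in some libraries. Of the 5 skeletal muscle markers 4 were tested, and they went both ways. Acta1 and Ckm, which the heart also expresses, were called lower and make up most of the summed level of 3246 to 3661 FPKM in CON and 1972 to 2688 FPKM in HG. Myog, a transcription factor of skeletal muscle, was called higher, from 0.278 ± 0.108 to 0.540 ± 0.181 FPKM (log2FC 0.76, limma adjusted p = 0.0237), Myh3 had a log2FC of 0.53 (adjusted p = 0.0800), and Myod1 was at 0 in some libraries. The part of these markers in the level of Camk2b was not tested.

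Camk2a (25400), the main form of the forebrain, had the largest SD of the 4 in CON, 1.78 FPKM. It ranged from 9.95 to 14.4 FPKM in CON and from 10.2 to 13.7 FPKM in HG, and the groups covered nearly the same range. The log2 fold change was -0.03 (SE 0.101, limma adjusted p = 0.847). Its 95% interval ran from -0.25 to 0.19, so that these libraries do not exclude a change within that range.

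The gamma and beta genes held larger shares of the family in HG, and the delta gene a smaller one. In the summed FPKM of the 4 genes, Camk2d held 46.4, 47.3, 45.3, 43.1 and 43.6% in CON replicates 1 to 5 and 43.3, 41.0, 39.7, 42.4 and 44.1% in HG replicates 1 to 5. Camk2g held 29.8, 31.3, 30.4, 30.2 and 30.9% in CON and 33.5, 33.6, 33.1, 36.5 and 33.2% in HG. The shares of Camk2d overlapped between the groups and those of Camk2g did not, while Camk2b overlapped at 1.88 to 2.68% in CON and 2.59 to 3.48% in HG. The share of Camk2g was 3.46 percentage points higher in HG (SE 0.688, p = 0.00794 in a two-sided exact permutation test, which cannot give less with 5 libraries a group). The share of Camk2d was lower by a difference of -3.03 points (SE 1.13, exact permutation p = 0.0397), that of Camk2b was 0.814 points higher (SE 0.217, exact permutation p = 0.0159), and that of Camk2a differed by -1.25 points (SE 1.34, exact permutation p = 0.373). These are 4 tests on shares that sum to 100%, so that they are not independent, and the p-values are not adjusted.

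Shares are free of library scaling, but they do depend on gene length. By reads, without division by length, Camk2d made up 57.0 ± 1.41% of CON and 53.2 ± 1.56% of HG, and here the groups did not overlap (difference -3.85 points, exact permutation p = 0.00794). By reads Camk2a held 9.43 ± 0.973% in CON, against 22.1 ± 1.93% of the FPKM, because the values imply a length of about 1686 bases for Camk2a and 4996 for Camk2d. The share of Camk2g was nearly the same on both scales, at 31.1 ± 0.647% of reads in CON and 34.6 ± 1.15% in HG. The lower share of Camk2d in FPKM lost its call when CON replicate 1, 2 or 3 or HG replicate 2, 3 or 4 was left out (exact permutation p from 0.0635 to 0.0794), while the share of Camk2g kept its call without any one library (exact permutation p = 0.00794 each time, the smallest that 4 libraries against 5 allow). The sum of the 4 genes was 50.9 to 59.1 FPKM in CON and 56.9 to 59.5 FPKM in HG, with overlap.

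**Figure D3:**
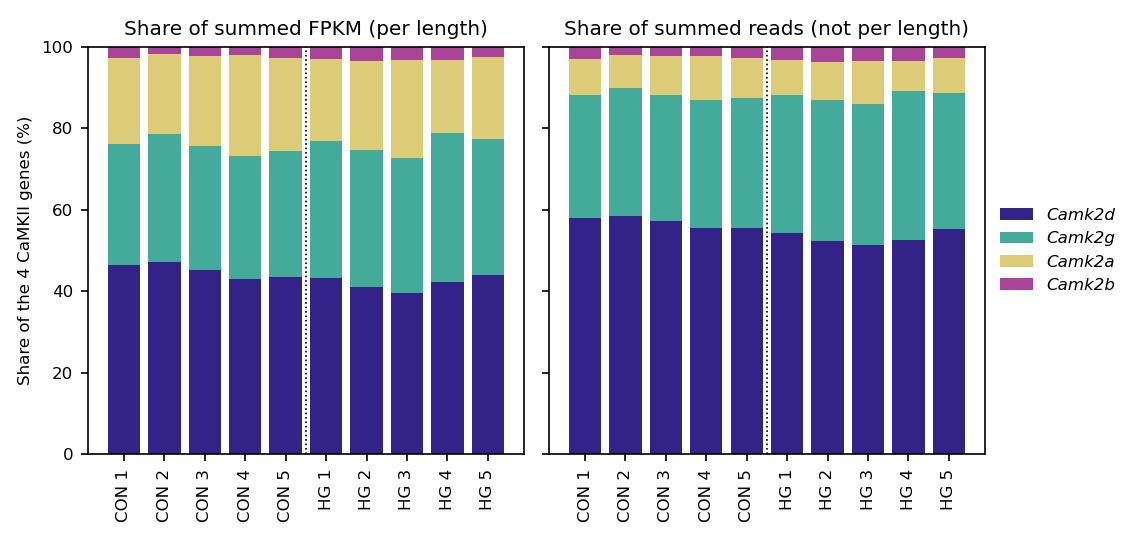
Share of each CaMKII gene among the 4 in every library, in percent of the summed FPKM on the left and of the summed reads on the right, with a dotted line between the groups. The band of Camk2g is wider in all 5 HG libraries on both sides, at 33.1 to 36.5% of the FPKM against 29.8 to 31.3% in CON, and the band of Camk2a is narrower by reads.

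Of the kinases outside CaMKII, Camk1 (171503), which encodes a broadly expressed cytosolic kinase, had a level per length near that of Camk2d. CON replicates 1 to 5 had 24.9, 24.8, 23.1, 23.8 and 24.5 FPKM and HG replicates 1 to 5 had 27.3, 28.5, 27.1, 31.3 and 27.6 FPKM. All HG libraries lay above all CON libraries. The means were 24.2 ± 0.763 and 28.4 ± 1.70 FPKM. The log2 fold change was 0.23 (SE 0.0451, limma adjusted p = 0.00184), and its call was lost only with median-of-ratios factors among the 21 alternatives (0.14, adjusted p = 0.0527). Camk1 was above Camk2d in 2 of 5 CON libraries and in 5 of 5 HG libraries.

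Camkk2 (83506), the kinase upstream of CaMKI, CaMKIV and AMP-activated kinase, was at 2.16, 1.86, 2.10, 2.23 and 2.22 FPKM in CON replicates 1 to 5. HG replicates 1 to 5 had 2.72, 2.35, 2.16, 2.13 and 2.19 FPKM, so that 2 HG libraries stood above all of CON and the rest among them. The log2 fold change was 0.12 (95% interval -0.07 to 0.31, adjusted p = 0.314). Camk4 (25050), a kinase best known from T cells and neurons, lay below the filter with 4 to 28 reads per library. It had 6, 7, 7, 5 and 13 reads in CON replicates 1 to 5 and 4, 9, 17, 28 and 14 in HG replicates 1 to 5. Its level per length was lower than that of Camk2b in all 10 libraries, and HG held both its lowest and its highest value. Without the filter, its log2 fold change was 0.27 (95% interval -0.09 to 0.63, limma adjusted p = 0.250), a scale on which genes this low change little. Summed markers of thymus and T cells were at 1.72 to 2.82 FPKM in CON and 2.18 to 2.41 in HG, with 2 of 8 tested and Cd3e, Cd3g, Rag1, Rag2, Dntt and Ptcra at 0 in some libraries.

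**Figure D4:**
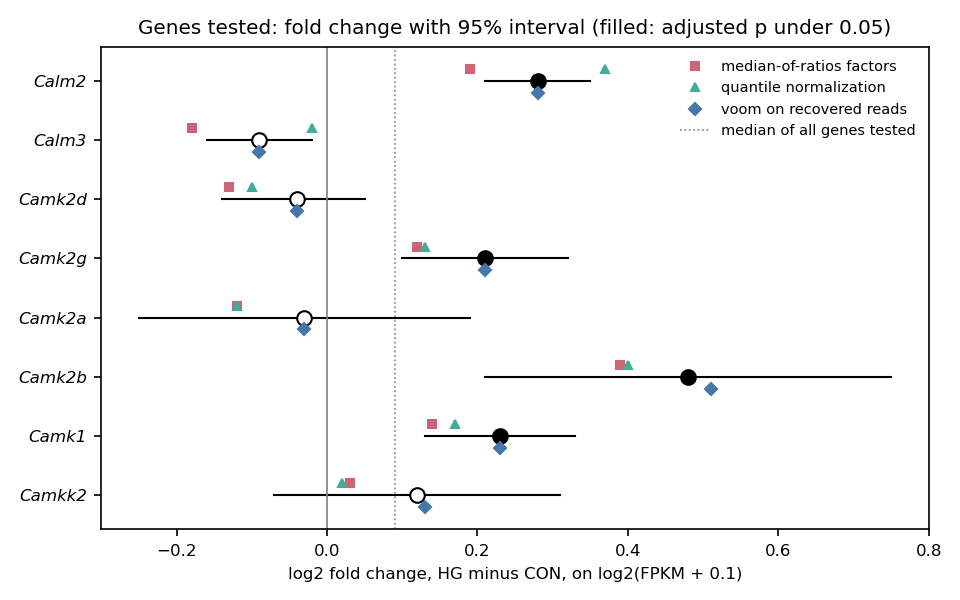
Log2 fold change (HG minus CON, on log2(FPKM + 0.1)) of the 8 genes tested, with the 95% interval as a line and filled circles for an adjusted p under 0.05, and small symbols for 3 other ways to scale or count. Symbols of median-of-ratios factors lie to the left of the circles in all 8 genes, and Calm2, Camk2g, Camk2b and Camk1 stay to the right of 0 in each.

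The number of these genes that passed changed with the scaling of the libraries. Over all genes, 70.7% of calls were higher in HG as deposited, 47.1% with median-of-ratios factors and 53.0% when libraries were quantile-normalized, scalings that moved the median log2FC of all genes from 0.09 to 0.01 and 0.02. With median-of-ratios factors 2 of the 9 genes were called higher, Calm2 (log2 fold change 0.19) and Camk2b (0.39), and 2 lower, Calm3 (-0.18) and Camk2d (-0.13). Under each of the 21 alternatives the log2FC of Calm2 was above that of Calm3, and that of Camk2g above that of Camk2d. Many of the alternatives could not alter these orders. Factors that scale a whole library move both genes of a pair nearly alike, and the trend, filter and block settings left these log2FC unchanged.

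In the authors' annotation, all 9 carry the KEGG pathway Oxytocin signaling, which holds 150 of the genes listed, and 8 carry Calcium signaling, which lacks Camkk2. The GO term calmodulin-dependent protein kinase activity belongs to the 7 kinases and to 21 genes in all. Genes whose log2 values followed Camk2d most closely over the 10 libraries were Mecr (Pearson r = 0.921, Spearman rho = 0.939) and Mcts2 (0.912 and 0.673). After the group means were subtracted they were Hdlbp (0.924 and 0.879), Mettl23 (0.924 and 0.915) and Trnau1ap (0.922 and 0.964). Each was picked for its high r over 10 libraries that share depth and scaling, so that these values are a description.

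Around the 9 genes, 104 further genes of calmodulin signalling were followed in 10 lists, of which 92 could be tested. Of these, 24 were called higher in HG and 19 lower, which is 46.7% against 40.1% of all genes tested. In the main fit, 0 reached the threshold of a differentially expressed gene, but Adcy1 and Nos1 passed it by voom on recovered reads and with a pseudocount of 0.01. Some fits at the main pseudocount of 0.1 also carried them past the threshold, Adcy1 with median-of-ratios factors and Nos1 without HG replicate 2, for example. The study lists both among its differentially expressed genes associated with CaMKII delta. Over the 92 tested genes of the lists the median log2 fold change was 0.07, against 0.09 over all genes. The lists differed in direction, as described in turn.

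Other CaM kinases and relatives were higher where they passed the test. Of 8 tested, 5 were called higher and 0 lower, against 28.4% and 11.8% of all genes tested. The median log2 fold change was 0.42, against 0.09 over all genes. Camk1g (171358), which encodes CaMKI gamma, rose from 4.28 ± 0.707 to 7.52 ± 1.19 FPKM (± SD over 5 libraries; log2FC 0.80, limma adjusted p = 0.000544). Camkv (79011), a relative held to lack kinase activity, rose from 0.875 ± 0.115 to 1.40 ± 0.270 FPKM (log2FC 0.61, adjusted p = 0.00447). Both calls held under all 21 alternatives. Camkk1, the other upstream kinase, had a log2FC of -0.18 (adjusted p = 0.151).

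Genes of CaMKII inhibitors, phosphatases and anchoring proteins went both ways. Ppm1e (360593), which encodes a phosphatase that acts on CaM kinases, fell from 3.80 ± 0.324 to 2.12 ± 0.167 FPKM (± SD over 5 libraries; log2FC -0.81, limma adjusted p = 2.06e-05), and it was called under all 21 alternatives. Its relative Ppm1f (287931) was higher with 0.15 (adjusted p = 0.0397), a call that held in only 9 of the 21 alternatives. Camk2n1, the gene of an inhibitor of CaMKII, had 8.72 ± 1.42 and 7.92 ± 1.36 FPKM (log2FC -0.14, adjusted p = 0.408). Actn4 (63836), an actin crosslinker that can bind CaMKII, was higher with 0.20 (adjusted p = 0.0401) and lost its call under 8 of the 21 alternatives. In all, 2 of 6 genes of this list were called higher and 1 lower, against 28.4% and 11.8% of all genes tested.

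Proteins that bind and store calmodulin had 3 of 5 tested genes higher and 0 lower, against 28.4% and 11.8% of all genes tested. Marcksl1 (81520) rose from 39.5 ± 2.49 to 57.2 ± 6.57 FPKM (± SD over 5 libraries; log2FC 0.53, limma adjusted p = 0.000202), and Nrgn (64356), neurogranin, from 4.19 ± 0.830 to 5.67 ± 0.610 FPKM (0.45, adjusted p = 0.0156). The call of Nrgn was lost with median-of-ratios factors (adjusted p = 0.0546) and when libraries were quantile-normalized (0.0665).

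Calcineurin is the calmodulin-dependent phosphatase that sends NFAT factors to the nucleus. Of 12 tested genes of this branch, 2 were called higher and 3 lower, against 28.4% and 11.8% of all genes tested. Rcan2 (140666), a regulator of calcineurin, fell from 39.0 ± 1.77 to 26.0 ± 1.67 FPKM (± SD over 5 libraries; log2FC -0.59, limma adjusted p = 5.21e-06), while its relative Rcan1 had a log2FC of 0.08 (adjusted p = 0.260). Of the catalytic subunits, Ppp3cc (171378) fell by 0.23 on the log2 scale (adjusted p = 0.00338), and Ppp3cb (24675) was higher with 0.12 (adjusted p = 0.0427), a call that held in 10 of 21 alternatives. Nfatc1 (100361818), a factor of endocardium and valves, rose with 0.45 (adjusted p = 0.00977).

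Other kinases and enzymes under calmodulin were mixed. Among the kinases, 2 of 10 were higher and 1 lower, against 28.4% and 11.8% of all genes tested. Eef2k (25435), which slows protein synthesis at elongation, fell from 35.4 ± 3.17 to 28.0 ± 1.09 FPKM (± SD over 5 libraries; log2FC -0.33, limma adjusted p = 0.000769). Mylk3 (291926), the myosin light chain kinase of the heart, was higher with 0.15 (adjusted p = 0.0232) and Phkg2 (140671), a subunit of phosphorylase kinase, with 0.22 (adjusted p = 0.0120), and both lost their calls with median-of-ratios factors (adjusted p = 0.397 and 0.105). Mylk3 lost it without CON replicate 2 as well (adjusted p = 0.0510).

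Among pumps and enzymes, 3 of 14 were higher and 4 lower, against 28.4% and 11.8% of all genes tested. Adcy1 (305509), a calcium-stimulated adenylyl cyclase, fell from 3.62 ± 0.501 to 1.79 ± 0.456 FPKM (± SD over 5 libraries; log2FC -0.99, limma adjusted p = 0.000260), with a log2FC of -1.04 by voom, -1.03 with a pseudocount of 0.01 and -1.08 with median-of-ratios factors. The neuronal nitric oxide synthase Nos1 (24598), at 0.222 ± 0.0673 and 0.0913 ± 0.0868 FPKM, had a log2FC of -0.84 (adjusted p = 0.0389) that was called in 11 of 20 alternatives. The size of this difference depended on the pseudocount, since the log2FC of Nos1 was -1.69 by voom (adjusted p = 0.0123), -1.61 with a pseudocount of 0.01 (adjusted p = 0.0424) and -0.16 with a pseudocount of 1 (adjusted p = 0.0534). The calcium pump gene Atp2b4 (29600) and the phosphodiesterase gene Pde1a (81529) were higher with 0.42 and 0.41 (adjusted p = 0.00144 and 0.0138).

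Genes of cardiomyocyte proteins that CaMKII phosphorylates were mostly lower, with 9 of 13 called lower and 1 higher. Of all genes tested, 11.8% were called lower and 28.4% higher. The median log2 fold change of the list was -0.27, against 0.09 over all genes. The largest decreases were those of Ryr2 (689560), the calcium release channel, at -0.62 (limma adjusted p = 7.94e-05) and of Tnni3 (29248), cardiac troponin I, at -0.54 (adjusted p = 4.89e-05). Cacnb2 (116600), a subunit of the L-type calcium channel, was the one called higher, from 6.48 ± 0.220 to 7.41 ± 0.204 FPKM (± SD over 5 libraries; log2FC 0.19, limma adjusted p = 0.00685), and it lost its call with median-of-ratios factors (adjusted p = 0.119) and when libraries were quantile-normalized (0.129). Of the 7 cardiomyocyte markers 5 were lower and 0 higher in the same libraries, Tnni3 being on both lists, and their part in this result was not tested.

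Of the 14 transcription factors and coactivators downstream of CaM kinases, 3 were higher and 1 lower, against 28.4% and 11.8% of all genes tested. The other 10 did not pass the test. Crem (25620) was higher with a log2 fold change of 0.31 (limma adjusted p = 0.0160) and Crtc1 (684527) with 0.17 (adjusted p = 0.0314), and Mef2d (81518), a target of the pathway by way of class II histone deacetylases, was lower with -0.14 (adjusted p = 0.0272). Crtc1 and Mef2d each lost their calls under 8 of 21 alternatives, and Crem under both other scalings. AMP-activated kinase, which CaMKK2 phosphorylates, was listed with its other activator Stk11, and 3 of 8 genes were higher and 0 lower, with a median log2FC of 0.08. Over all genes tested 28.4% were called higher and the median was 0.09, so that the AMPK list lay near the background. The catalytic subunit gene Prkaa1 (65248) rose from 9.06 ± 0.375 to 11.8 ± 0.457 FPKM (± SD over 5 libraries; log2FC 0.38, limma adjusted p = 7.90e-05) and Prkab2 (64562) from 6.46 ± 0.534 to 8.01 ± 0.668 FPKM (0.30, adjusted p = 0.00609). The catalytic subunit gene Prkaa2 had a log2FC of -0.10 (adjusted p = 0.198). The calmodulin-like gene Calml4 had a log2FC of -0.13 (adjusted p = 0.648), and in its list 0 genes were called in either direction.

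**Figure D5:**
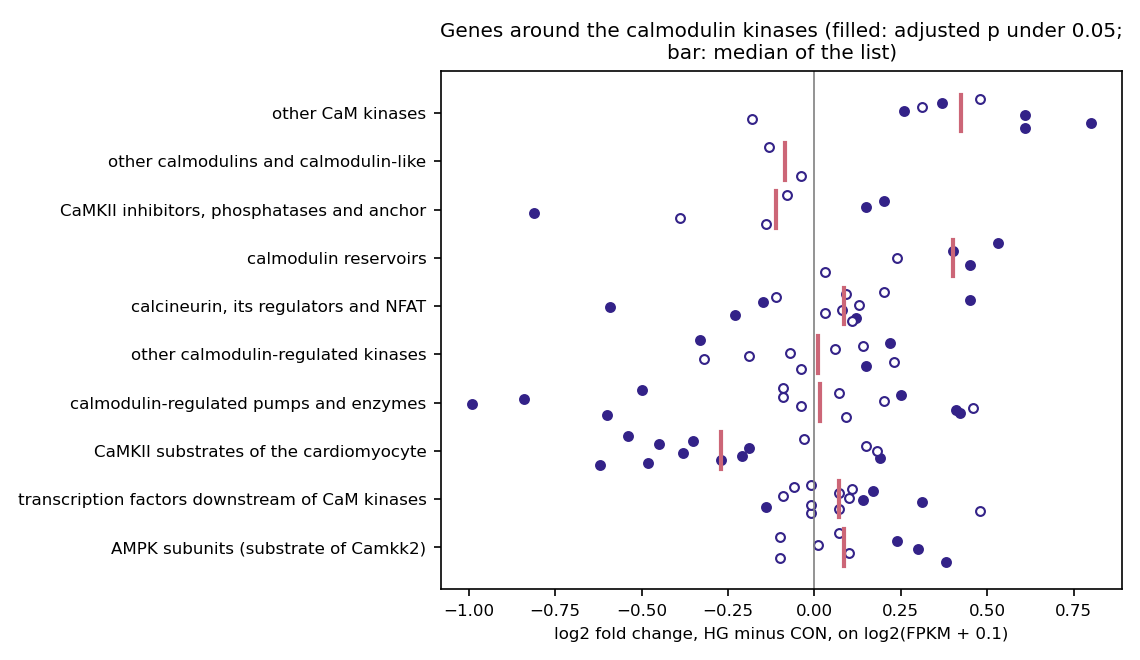
Log2 fold change (HG minus CON, on log2(FPKM + 0.1)) of each of the 92 tested genes in 10 lists around the calmodulin kinases, with filled points for an adjusted p under 0.05 and a bar at the median of each list. The bars of other CaM kinases (0.42) and calmodulin reservoirs (0.40) lie to the right of 0, and the bar of the CaMKII substrates of the cardiomyocyte (-0.27) lies to the left.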

How the data were processed

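Messenger RNA of fetal rat heart tissue was compared between 5 CON and 5 HG libraries, grouped by sample title. The authors deposited FPKM, read numbers divided by gene length and library size, with GO and KEGG annotation. The submitters' processing notes name fastp, HISAT2, HTSeq, R 3.2.0 and the build mRatBN7.2, and the annotation is not given in the sources used here. All value columns were used (0 unused).

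Whole reads were recovered from the steps between FPKM values, which were whole multiples of 1 read in 100.0% of values (tolerance 0.02). The main test was limma 3.58.1 (trend, no covariate) in R 4.3.3 on log2(FPKM + 0.1) of genes averaging 0.1 FPKM or more, with Benjamini-Hochberg adjustment over 14542 genes, and 3483 genes fell below the filter. The methods name DESeq, which takes counts and was not used. Fold changes on this scale understate those of low genes. For shares, exact permutation tests (two-sided, 252 splits) were used. Python 3.11.15, numpy 2.4.6, pandas 2.3.3 and matplotlib 3.10.9 were used. Recovery and model were tested on simulated data.

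The members and lists were chosen with earlier results of these data known. Named were the 9 genes, up to 2 called genes per direction in each list, and the 3 genes most like Camk2d by Pearson r, with and without group means. Camkk1, Camk2n1, Rcan1, Prkaa2, Calml4, Myog and Myh3 were added after their values were seen. Some genes that these rules name are not reported here. The fit was repeated without each library in turn, with voom on recovered reads, with a block for the replicate number, with array weights or without trend, with quantile normalization or median-of-ratios factors, without hemoglobin genes, with 0.01 or 1 as pseudocount, and with a filter at 1 FPKM or none. Shares were also taken by reads, medians and log2 ratios. Promoters were taken from RefSeq (GRCr8), where 6 of the 9 genes matched. Marker lists of macrophages, erythroid cells, liver and lung epithelium are in the closing section.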

Additional observations from a re-analysis of the deposited data

Results flagged for a closer look

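In 26 groups of 5 libraries (the 9 genes and the 4 CaMKII shares in CON and in HG), 2 held a library far from the other 4 by Dixon's test at the 95% level, where chance gives about 1 in 20 groups. CON replicate 5 had 0.0574 FPKM of Camk4, which is 13 reads, against 0.0214 to 0.0310 FPKM in the other CON libraries. HG replicate 4 had a Camk2g share of 36.5% of the summed CaMKII FPKM, against 33.1 to 33.6% in the other HG libraries. Without HG replicate 4 the Camk2g share was 2.83 points higher in HG than in CON.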

How the results depend on the processing

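Calm2 and Camk2b were called higher under all 21 alternatives of the fit. With median-of-ratios factors, 2 of the 9 genes were called higher and 2 lower, and 12 genes of the 10 lists were called higher, against 15 after quantile normalization and 24 as deposited. Calm3 alone was called lower, 1 of the 9 genes, with array weights, with a filter at a mean of 1 FPKM and with a pseudocount of 1 or 0.01. With 1 library left out, 0 to 1 of the 9 genes were called lower, the difference in the Camk2d share ran from -3.54 to -2.42 points, and the uncalled log2 fold change of Camk2a ran from -0.10 to 0.03, positive at 0.03 without CON replicate 4, 0.01 without CON replicate 5 and 0.03 without HG replicate 4. The cause of these changes was not tested. The labels name no pairs of CON and HG samples. Deviations of same-numbered libraries correlated between -0.126 and 0.108, and 0 of 5 CON libraries correlated best with their own number. Such correlations cannot show whether same-numbered samples were handled together. With the replicate block the number of genes called went from 5836 to 5096, and 4 of the 9 genes were called higher and 0 lower as before. Paired by replicate number, the shares of Camk2d (-3.03 points, exact sign-flip p = 0.125), Camk2g (3.46 points, p = 0.0625) and Camk2b (0.814 points, p = 0.0625) did not pass, but 0.0625 is the smallest p that 5 pairs allow. Of 853 comparisons with an alternative, 754 were taken as unchanged. For fold changes and shares this means the same direction and side of the threshold. For counts of called genes it allows some change. An example is the number of listed genes called lower, 19 in the main fit and 14 without CON replicate 4. At 4 to 28 reads per library, the depth does not resolve a change in Camk4.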

Other observations

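Markers of other cell types were measured in the same libraries, and their part in the results above was not tested. Of the 5 macrophage markers 3 were called higher in HG and 0 lower, and their summed level was 25.4 to 31.6 FPKM in CON and 30.4 to 40.1 FPKM in HG, with overlap. The summed level of 4 erythroid markers was 57.7 to 106 FPKM in CON and 38.9 to 55.4 FPKM in HG, without overlap, and 3 of them were called lower. The 3 liver markers summed to 2.31 to 65.6 FPKM in CON and 0.485 to 1.36 FPKM in HG, and 3 were called lower. The lung marker Sftpc was at 0 in all CON libraries and at most 0.0693 FPKM in HG.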
